A study of Homo sapiens with 5 samples.

Results

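Expression of 10 genes of purinergic signalling, led by the receptor gene P2RY14, was compared between REH leukaemia cells taken from the brain and from the spleen of mice. The 10 genes are P2RY14, P2RY8, P2RY10, P2RY11, P2RX1, P2RX4, P2RX5, P2RX7, ENTPD1 and NT5E, out of 65217 human gene identifiers in the count table, and each matched 1 identifier by its symbol. They were chosen with the brain and spleen values of these libraries known, so their differences are given as a description, without p-values. All 10 passed the filter on low counts. P2RY14 passed through its brain counts alone.

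REH is an established human precursor B cell leukaemia line with the ETV6-RUNX1 (TEL-AML1) fusion. REH cells were grown in NSG mice (NOD.Cg-PrkdcscidIl2rgtm1Wjl/SzJ), which lack mature lymphocytes of their own, transplanted at 6 to 10 weeks of age. Cells came from the leptomeninges for the 3 brain libraries and from the spleen of the mice for the 2 spleen libraries. Each library holds the pooled RNA of 5 mice, so the spread between libraries is that of repeated experiments and not of single animals, and 1 cell line stands for the disease. Cells were purified on a Ficoll density gradient, which separates by density and not by species. Per the labels, spleen replicate 3 failed quality control and was left out by the submitters. The 2 spleen libraries are titled replicates 1 and 2 but carry the numbers 2 and 4 in the column names of the count table, so which occasions they come from is uncertain. Library totals on human genes lay between 38387991 and 48656936 estimated counts in brain and were 46005806 and 48764202 in spleen. Of 12 markers of precursor B cells 11 were tested. Of these 2 were higher in brain (RAG1 and CD34) and 1 lower (CD79A) by edgeR's test, described below. Over all tested genes 9.51% were called in either direction. VPREB1, a surrogate light chain gene, was at 0 counts in every library. The summed level of the list was 7219 to 7495 CPM (counts scaled to a common library size) in brain and 7522 to 7868 CPM in spleen.

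Cells release nucleotides such as ATP and sugar nucleotides such as UDP-glucose, which act on neighbouring cells as signals. P2X receptors are ion channels opened by ATP, and P2Y receptors are G protein-coupled receptors for nucleotides, although several receptors carry the P2RY name and bind lipids. The enzyme encoded by ENTPD1 (CD39) degrades ATP and ADP to AMP, and that encoded by NT5E (CD73) turns AMP into adenosine, which has receptors of its own. P2RY14 encodes a receptor coupled to Gi proteins that binds UDP-glucose and related UDP-sugars, and is known in haematopoietic progenitors and immune cells.

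P2RY14 (ENSG00000174944) lies on GRCh38 chromosome 3 from 151212117 to 151278542 on the minus strand, inside the larger gene MED12L on the opposite strand. Its exons share 0 of 2890 bases with MED12L exons. RefSeq (GRCh38.p14) lists 2 starts for it, and both promoter windows are shown because the reads can be divided between them. Each window runs from 250 bases before to 50 after the start, on the gene's strand, the upstream one at chr3:151278493-151278792 and the downstream one at chr3:151248942-151249241. Capitals mark a match to any of 5 motifs searched on both strands: the core bound by hypoxia-inducible factors in its forms ACGTG and also GCGTG, the E-box CACGTG, which holds the first of them, the AP-1 site TGACTCA, and the site bound by RUNX factors, TGTGGTT. In the upstream window they mark CACGT, the reverse complement of the first motif.
P2RY14 upstream start: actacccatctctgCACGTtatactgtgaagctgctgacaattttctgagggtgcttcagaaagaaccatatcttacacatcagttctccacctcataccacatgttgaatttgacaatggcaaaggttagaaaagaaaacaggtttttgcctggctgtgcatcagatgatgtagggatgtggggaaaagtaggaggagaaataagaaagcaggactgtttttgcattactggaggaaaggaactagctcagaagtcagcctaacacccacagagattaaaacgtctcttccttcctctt
P2RY14 downstream start: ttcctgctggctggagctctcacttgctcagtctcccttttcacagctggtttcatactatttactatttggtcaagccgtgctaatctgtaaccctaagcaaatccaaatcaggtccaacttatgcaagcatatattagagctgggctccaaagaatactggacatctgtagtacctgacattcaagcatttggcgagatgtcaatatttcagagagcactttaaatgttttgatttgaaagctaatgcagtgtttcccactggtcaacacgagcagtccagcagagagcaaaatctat
The upstream window held 1 match, ACGTG on the opposite strand at 236 bases before the start, and the downstream window held none. Of 35116 such windows in the genome, 21.4% hold the first motif, 36.5% hold GCGTG, 7.26% the E-box, 4.95% the AP-1 site and 4.27% the RUNX site. A match says only that these letters are present. Both windows were poor in the dinucleotide CG, with 2 and 3 occurrences against a median of 14 over all windows, and their GC content was 42.7% and 42.3% against a median of 58.7%.

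P2RY14 had 329, 652 and 844 estimated counts in brain, against 3 and 11 in spleen. Every brain library was above both spleen libraries, and the spleen values were close to the lower limit of detection. As CPM, the level was 8.43, 13.2 and 18.8 in brain and 0.0684 and 0.218 in spleen, on average 13.5 ± 5.17 in brain (SD, n = 3) and 0.143 ± 0.106 in spleen (SD, n = 2). In bulk RNA, more cells with P2RY14 transcripts and more transcripts per cell cannot be told apart. The brain libraries themselves differed from each other by more than 2-fold, with replicate 3 highest. The fitted log2 fold change, brain over spleen, was 6.49 (SE 0.509), which was rank 21 from the top among 20419 tested genes. Taking all reads of a site together, 1825 brain and 14 spleen counts gave a scaled ratio of 92.1 with an exact 95% interval of 54.7 to 169 for counting error only. The fitted value rested on the few spleen reads. Leaving out spleen replicate 2 raised it to 7.56, and leaving out spleen replicate 1 lowered it to 5.92.

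Nearly all P2RY14 reads were assigned to transcripts from the upstream start. The protein-coding transcript P2RY14-201 held 97.1%, 90.2% and 99.1% of the gene's estimated counts in brain replicates 1 to 3. P2RY14-203, a shorter coding transcript, starts a little downstream of it, at 151278369. The share of all transcripts from the upstream start was 100%, 94.96% and 100% in brain, and the transcript from the downstream start, P2RY14-202 (start at 151249114, inside the window shown), was given 32.9 counts in brain replicate 2 and 0 in the other brain libraries. The 11 reads of spleen replicate 2 were all given to P2RY14-201, too few for a comparison of starts between sites. In the plot of transcript counts, P2RY14-201 fills most of each brain bar and the spleen bars are barely visible.

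**Figure D1:**
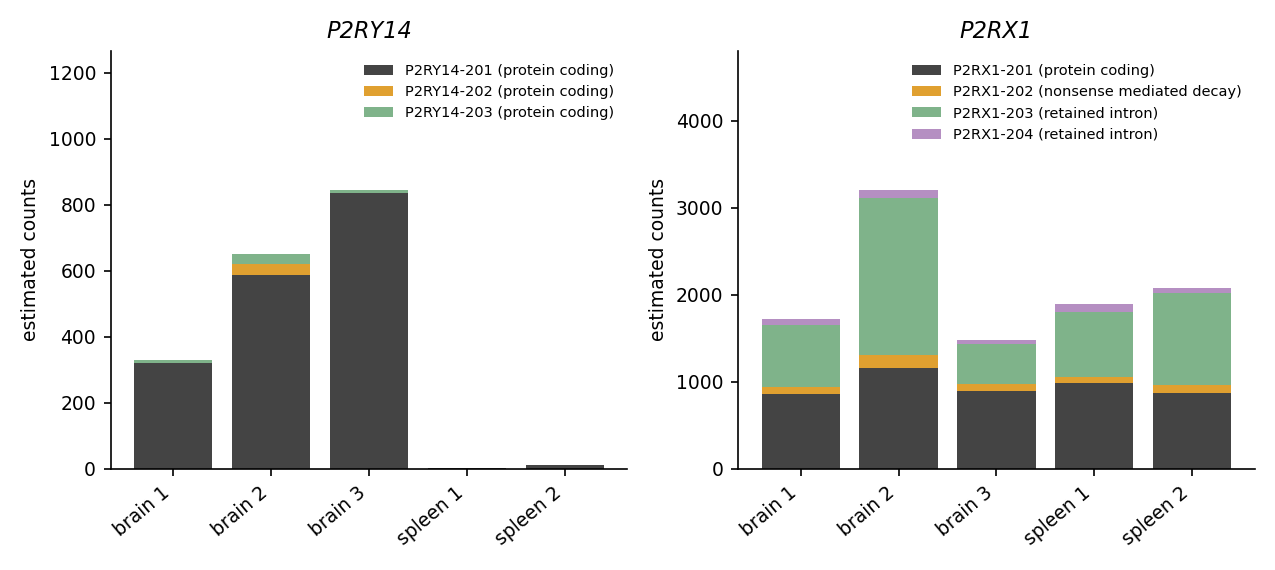
Estimated counts (vertical axes) of each transcript of P2RY14 (left) and P2RX1 (right) in the 3 brain and 2 spleen libraries (bars), stacked by transcript with its annotated type. P2RY14-201 holds at least 90.2% of P2RY14 counts in each brain library, and the tall P2RX1 bar of brain replicate 2 holds more of the retained-intron transcript P2RX1-203 than of any other.

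RNA of the mouse host was present in every library. Mouse transcripts held 5.70%, 2.58% and 2.64% of all estimated counts in brain and 6.33% and 8.87% in spleen. By this measure the mouse share was higher in both spleen libraries, where P2RY14 was near 0, and among brain libraries it was highest in replicate 1, where P2RY14 was lowest. As a share of TPM it was 10.4%, 4.36% and 3.10% in brain and 7.98% and 10.5% in spleen, so that the groups overlapped. Mouse transcripts could not be given gene names here, so the mouse counterpart of P2RY14 was not analysed. Reads of host cells are meant to go to the mouse transcripts, and how well reads of the 2 species were told apart was not tested. Human counts of cell type markers are therefore not taken as a measure of how much host RNA a library held. Microglia carry abundant P2RY12 in the brain, and in the human table P2RY12 had 12, 15 and 14 counts in brain and 6 and 10 in spleen. P2RY13 had 3 counts or fewer in every library and the complement gene C1QB 1 count or fewer. Of 11 tested microglia and macrophage markers, 2 were higher (CX3CR1 and CD68) and 1 lower (SALL1) in brain by edgeR's test. The share called over all tested genes, for this list and those that follow, was 9.51%. The summed level of the microglia and macrophage list was 141 to 173 CPM in brain and 145 to 160 CPM in spleen. Of 3 tested T cell markers LCK was higher, with the list at 12.6 to 15.6 CPM in brain and 6.40 to 7.72 CPM in spleen and CD3D at 0. Of 7 tested endothelial and meningeal markers PECAM1, which some leukocytes also express, was higher at 12.7, 17.4 and 10.2 CPM in brain and 1.78 and 1.09 CPM in spleen, with the list at 33.6 to 45.0 CPM in brain and 22.0 to 24.0 CPM in spleen, while the endothelial cadherin gene CDH5 had 0, 0 and 6 counts in brain and 1 and 0 in spleen. The part of the mouse share and of these marker differences in the P2RY14 result was not tested.

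Several neighbours of P2RY14 were close to the limit of detection. GPR171, the adjacent receptor gene (chromosome 3, 151197832 to 151203216), had 3, 10 and 11 counts in brain and 0 and 0 in spleen. Brain replicate 1 was no higher than the 3 counts that a library at 0 allows, so the groups cannot be called separate. Over the groups, 24 brain counts against a floor of 3 counts over the spleen group gave a scaled ratio of 5.65, at depths too low for the filter. That ratio leaves out the counting error in brain and the spread between libraries, so it is not a lower bound. SUCNR1, the succinate receptor gene, had 4, 20 and 2 counts in brain and 0 and 2 in spleen. Its scaled ratio was 9.18, with an exact 95% interval of 2.30 to 79.8 for counting error only. The interval leaves out the spread between libraries, and most SUCNR1 reads came from brain replicate 2. MED12L, the host gene, had 33, 38 and 19 counts in brain and 20 and 47 in spleen, and its groups overlapped (log2 fold change -0.05, SE 0.421). P2RY12, a receptor for ADP, did not pass (log2 fold change 0.85, SE 0.464, edgeR adjusted p = 0.290).

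AADAC was at 0 counts in every library and CLRN1 reached 5 at most. A library with 0 counts allows up to 3 counts. Among the abundant neighbours, SIAH2, a ubiquitin ligase gene, was at 92.9 ± 12.2 CPM in brain (SD, n = 3) and 63.2 ± 8.72 CPM in spleen (SD, n = 2) (log2 fold change 0.55, SE 0.136, edgeR adjusted p = 0.0374). That call was lost without spleen replicate 2 (edgeR adjusted p = 0.146), without any 1 brain replicate (up to 0.0779) and with summed transcript estimates (0.0511). IGSF10 and the splicing regulator MBNL1 had log2 fold changes of -0.35 and -0.25 and did not pass (edgeR adjusted p = 0.232 and 0.198). IGSF10 passed with no filter on low counts (edgeR adjusted p = 0.0374). In the plot of the region, the points of P2RY14 split by site, and those of the abundant genes SIAH2, IGSF10 and MBNL1 lie near each other.

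**Figure D2:**
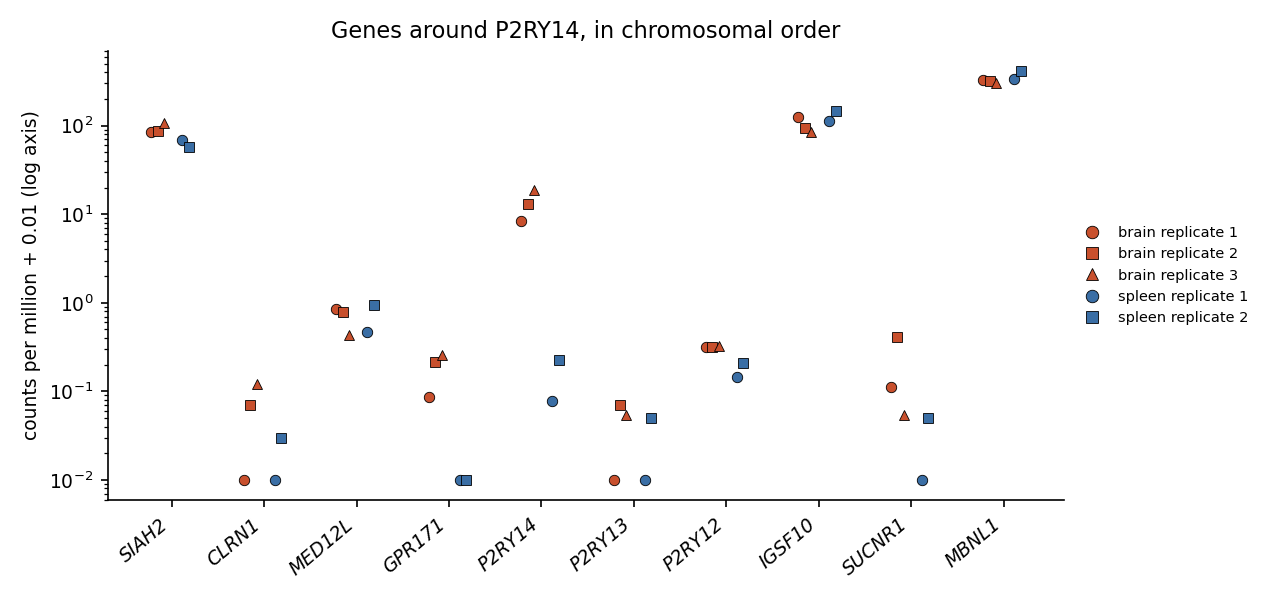
Level of P2RY14 and neighbouring genes with at least 1 count in any library, in their order on chromosome 3, as CPM plus 0.01 (vertical log axis) for each brain and spleen library (points). P2RY14 lies between 8.43 and 18.8 CPM in brain and under 0.22 CPM in spleen, while its host gene MED12L overlaps between the sites.

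The 5 genes whose pattern over the 5 libraries was most like that of P2RY14 were CCND2, BHLHE40, ELFN2, VEGFA and AK4. Likeness was the root mean square difference of log2 CPM after centring each gene, over genes whose mean log2 CPM was 1 or more, and was 0.545, 0.610, 1.11, 1.14 and 1.14 log2 units in that order. CCND2, the D-type cyclin gene, followed P2RY14 also among the brain libraries, at 36.5, 55.9 and 87.3 CPM in brain and 1.23 and 1.75 CPM in spleen. BHLHE40, ELFN2, VEGFA and AK4 instead had their highest level in brain replicate 2, at 51.8, 78.9, 36.4 and 14.2 CPM. Ranking by Pearson correlation in place of this distance gave 5 other genes. Correlation ignores the size of a difference. The distance depends on that size, and the 5 genes it named had log2 fold changes of 4.22 to 5.62. Their likeness to P2RY14 is therefore largely that of a wide gap between the sites, which was known when P2RY14 was chosen.

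Among the other 9 genes no log2 fold change was larger than 0.81 in size, as the plot of fitted differences shows. Genes were tested with edgeR's quasi-likelihood test across 20419 genes, and a gene was called at a Benjamini-Hochberg adjusted p under 0.05. Of the 10 genes 2 were called higher in brain, P2RY14 and P2RY8, and 0 lower, beside 9.51% of all tested genes called in either direction. At an unadjusted p under 0.05 edgeR counted 3 higher and 0 lower, and the DESeq2 Wald test called 3 higher and 0 lower. Over all genes 6.01% were called higher and 3.5% lower, with a median log2 fold change of 0.0066, against -0.0041 for the 10 genes. Levels in CPM did not overlap between the sites for 5 of the 10 genes, 3 with brain above and 2 with brain below, beside 42.8% of all tested genes. Nothing is read from these shares, since the genes were chosen with the contrast known.

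**Figure D3:**
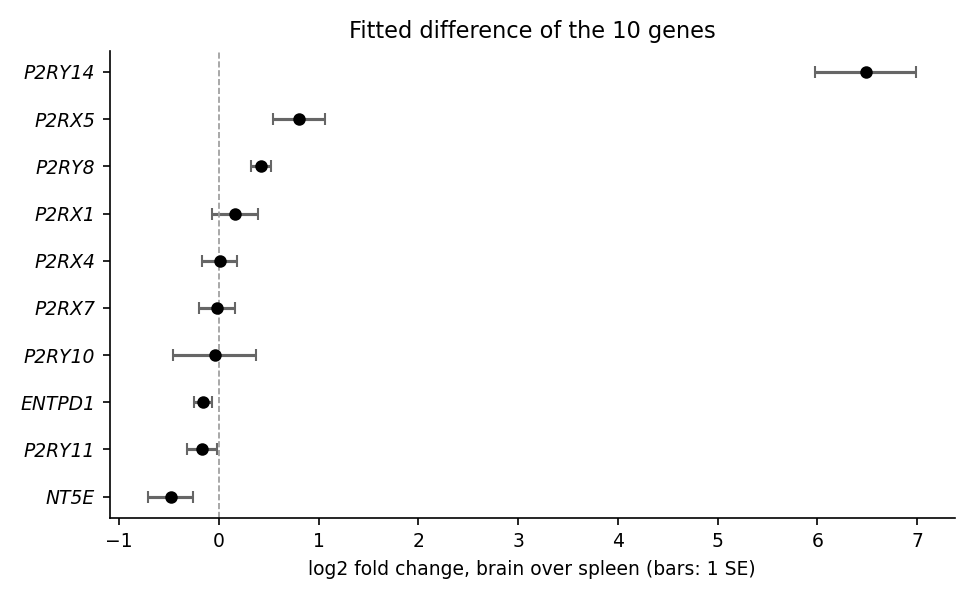
Fitted log2 fold change, brain over spleen, of the 10 genes (horizontal axis), with bars of 1 SE. P2RY14 stands at 6.49, and the other 9 genes lie between -0.48 and 0.81.

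P2RY8 encodes a receptor coupled to G13 proteins that binds a glutathione-linked lipid and confines B cells within germinal centres. The gene (ENSG00000182162, chromosome X, 1462581 to 1537185) lies in the part of X that Y shares. It was the most abundant of the 10 in both sites, at 142, 151 and 145 CPM in brain and 117 and 102 CPM in spleen. All brain libraries were above both spleen libraries, with a log2 fold change of 0.42 (SE 0.101). The call was lost without brain replicate 1, 2 or 3, without spleen replicate 2 and with summed transcript estimates. A single transcript, P2RY8-201, held between 98.6% and 99.3% of the gene's reads in each library.

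P2RY10 encodes a receptor for lysophosphatidylserine (ENSG00000078589, chromosome X, 78945332 to 78963727). It had 30, 47 and 23 counts in brain and 47 and 24 counts in spleen, the fewest of the 10 genes in brain, and the groups overlapped. Its log2 fold change of -0.04 (SE 0.418) took either sign when 1 library was left out, from -0.53 without spleen replicate 2 to 0.63 without spleen replicate 1.

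P2RY11 encodes an ATP receptor that raises both cyclic AMP and calcium (ENSG00000244165, chromosome 19, 10111693 to 10115372). It stood at 16.0, 18.1 and 21.5 CPM in brain and 18.9 and 22.9 CPM in spleen, and the groups overlapped, with a log2 fold change of -0.17 (SE 0.149). Its exons share 1148 of 2140 bases with the readthrough gene PPAN-P2RY11, so reads of the 2 are divided by a model. The readthrough gene had 185, 474 and 262 counts in brain and 269 and 380 in spleen, with a log2 fold change of -0.02.

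Of the ATP-gated channels, P2RX1, which opens quickly and desensitises (ENSG00000108405, chromosome 17, 3896592 to 3916476), was the most abundant. It stood at 44.02, 64.7 and 32.8 CPM in brain and 43.2 and 41.1 CPM in spleen, so the spleen values fell inside the brain range. Brain replicate 2 was set apart by a retained-intron transcript, P2RX1-203, with 1802 estimated counts there, against 712 and 464 in the other brain libraries and 757 and 1055 in spleen. The protein-coding P2RX1-201 varied less, with 858, 1156 and 896 counts in brain and 990 and 875 in spleen. The log2 fold change of the gene was 0.16 (SE 0.233), and it was -0.13 without brain replicate 2.

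P2RX5, a further ATP-gated channel (ENSG00000083454, chromosome 17, 3672199 to 3696240) had 135, 171 and 178 counts in brain and 67 and 131 in spleen. As CPM this was 3.46, 3.46 and 3.96 in brain and 1.53 and 2.60 in spleen, without overlap, and the log2 fold change was 0.81 (SE 0.261). It did not pass with all 5 libraries, but did without spleen replicate 2 (log2 fold change 1.24), with no filter on low counts and with the DESeq2 Wald test. Without spleen replicate 1 the value was 0.47. P2RX5 shares 1743 of 4031 exonic bases with the readthrough gene P2RX5-TAX1BP3, which stood at 177, 187 and 207 counts in brain and 205 and 200 in spleen. A transcript annotated for nonsense-mediated decay, P2RX5-210, took 25.0%, 35.2% and 58.8% of P2RX5 counts in brain and 36.8% and 32.6% in spleen, more than any other in brain replicates 2 and 3 and in spleen.

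P2RX4, a calcium-permeable channel found also on lysosomes, and P2RX7, which needs high ATP and can set off inflammasomes, lie next to each other on chromosome 12 (P2RX7 from 121132819 to 121188032, P2RX4 from 121210065 to 121234106). P2RX4 had 385, 443 and 363 counts in brain and 449 and 383 in spleen (log2 fold change 0.01, SE 0.174). P2RX7 had 214, 301 and 214 counts in brain and 227 and 294 in spleen (log2 fold change -0.02, SE 0.182). Both overlapped between the sites, and the sign turned with DESeq2 size factors for P2RX4 and with libraries left out for both. P2RX7 reads lay almost wholly on the coding transcript P2RX7-202, with 92.1% to 99.0% per library. P2RX4 reads were spread over 13 transcripts, and P2RX4-213, annotated for nonsense-mediated decay, held most in every library, with 28.2% to 43.4%.

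ENTPD1 and NT5E act one after the other on extracellular nucleotides. ENTPD1 (ENSG00000138185, chromosome 10, 95711779 to 95877266) stood at 92.2, 86.7 and 94.3 CPM in brain and 99.9 and 104 CPM in spleen (log2 fold change -0.16, SE 0.0927). NT5E (ENSG00000135318, chromosome 6, 85449584 to 85495791) had 197, 185 and 143 counts in brain and 229 and 298 in spleen, or 3.99 ± 0.960 CPM in brain (SD, n = 3) and 5.56 ± 0.491 CPM in spleen (SD, n = 2). Its log2 fold change was -0.48 (SE 0.225). In CPM, all brain libraries of both genes were below both spleen libraries. As TPM, which corrects for transcript length and here sums annotated transcripts only, both overlapped. For ENTPD1 those transcripts held fewer counts than the gene's total in every library, so CPM and TPM do not cover the same reads. What made the groups overlap in TPM was not tested. ENTPD1 was at 7.77, 8.96 and 9.35 TPM in brain and 8.22 and 10.8 TPM in spleen. NT5E was at 2.28, 1.68 and 1.32 TPM in brain and 1.76 and 2.31 TPM in spleen.

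ENTPD1 reads were divided between 2 long coding transcripts, ENTPD1-210 and ENTPD1-203. The second held 29.4%, 36.8% and 23.4% in brain and 1.10% and 37.6% in spleen, so spleen replicate 1 stood apart in how its reads were divided, while its count for the whole gene lay between those of brain replicate 2 and spleen replicate 2. These shares are of the counts on the gene's annotated transcripts. ENTPD1 shares 5742 of 14344 exonic bases with its antisense gene ENTPD1-AS1, and the strand setting of the counting is not given in the sources used here. ENTPD1-AS1 had 406, 500 and 378 counts in brain and 519 and 700 in spleen (log2 fold change -0.42, edgeR adjusted p = 0.121). NT5E was divided between 2 coding transcripts, NT5E-201 with 42.6% to 60.4% and NT5E-203 with 33.2% to 52.7% per library.

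**Figure D4:**
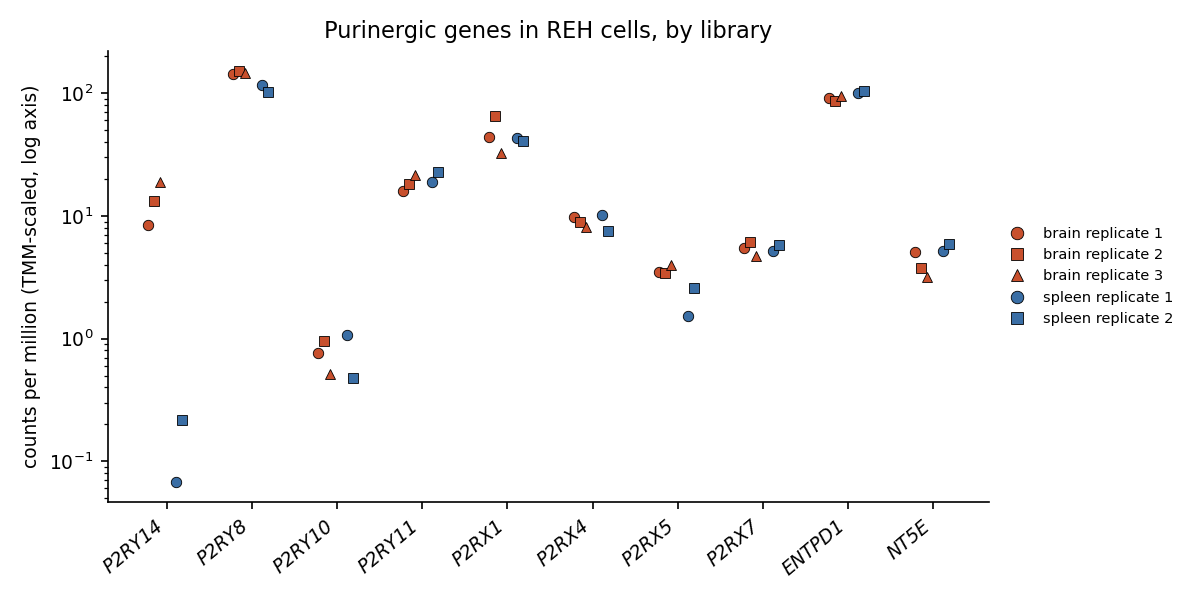
Level of each of the 10 genes as CPM (vertical log axis) in the 3 brain and 2 spleen libraries (points, with a marker for each replicate). P2RY14 shows the wide gap between 8.43 to 18.8 CPM in brain and at most 0.218 CPM in spleen, while the points of the other genes lie close together.

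Levels were ordered between genes per length, as TPM, which corrects for transcript length. Each value sums all annotated transcripts of the gene, including types that do not code for protein. Of the genes ordered next, the coding P2RX1-201 alone stood at 10.2, 12.0 and 10.2 TPM in brain. P2RY11-201 stood at 8.71, 10.9 and 13.5 TPM and P2RY14-201 at 4.10, 6.60 and 10.2 TPM. In brain the order was P2RY8 (53.9 TPM on average), P2RX1 (28.5), P2RY11 (20.3), ENTPD1 (8.69), P2RY14 (8.24), P2RX4 (7.63), P2RX5 (4.24), NT5E (1.76), P2RX7 (1.55) and P2RY10 (0.841). Ranges of neighbours in this order overlapped for P2RX1 with P2RY11, ENTPD1 with P2RY14, P2RY14 with P2RX4, and NT5E with P2RX7. In spleen the order was P2RY8 (36.8 TPM), P2RX1 (25.1), P2RY11 (23.2), ENTPD1 (9.49), P2RX4 (7.12), P2RX5 (2.23), NT5E (2.04), P2RX7 (1.52), P2RY10 (0.627) and P2RY14 (0.0944). There the ranges overlapped for P2RX1 with P2RY11 and for P2RX5 with NT5E. The orders of the 9 other genes were the same in both sites, and P2RY14 held place 5 in brain and place 10 in spleen.

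To set the 10 genes in their pathway, 124 further genes were grouped by role into 10 lists, of which 123 had a row and 100 passed the filter. Of these 100, 10 were higher and 7 lower in brain and 83 did not pass (edgeR adjusted p under 0.05), with a median log2 fold change of 0.075. Over all genes 6.01% were called higher and 3.5% lower, with a median of 0.0066. Leaving out brain replicate 1 left 6 higher and 1 lower, and the lower count was 3 without brain replicate 2 or 3, and 4 without spleen replicate 1 or with the replicate number as a block.

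No further nucleotide receptor of the P2Y or P2X kind passed. Of the 2 other tested P2Y genes and the 1 other tested P2X gene, 0 were called by edgeR or by DESeq2, and 0 had an unadjusted p under 0.05. P2RY6, a UDP receptor, had 10, 18 and 21 counts in brain and 20 and 15 in spleen, and P2RX2 15, 13 and 19 in brain and 13 and 17 in spleen. P2RY1 was at 0 in every library. Of the adenosine receptors, ADORA2A had 47, 86 and 67 counts in brain and 55 and 73 in spleen (log2 fold change 0.13, edgeR adjusted p = 0.811), and its groups overlapped. ADORA2B, named after its values were seen, had 66, 83 and 48 counts in brain and 32 and 42 in spleen (log2 fold change 0.92, SE 0.303, edgeR adjusted p = 0.0957). Its CPM was higher in every brain library, at 1.69, 1.68 and 1.07 in brain and 0.729 and 0.833 in spleen. Of these 2 tested adenosine receptors 0 were called by edgeR or DESeq2, and 1, ADORA2B, was higher at an unadjusted p under 0.05. ADORA3 was not analysed here.

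Of 5 tested relatives of P2RY8 and P2RY10 that bind lipids or nucleotides, 1 was higher and 0 lower by edgeR, likewise by DESeq2, and 3 were higher and 1 lower at an unadjusted p under 0.05. The higher gene was LPAR6, a lysophosphatidic acid receptor, at 39.4, 39.7 and 38.4 CPM in brain and 20.4 and 21.7 CPM in spleen. The log2 fold change stood at 0.90 (SE 0.0987, edgeR adjusted p = 0.00125), and it passed in all 13 fits. With the replicate block 2 genes of the list were higher.

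Among enzymes of the cell surface other than ENTPD1 and NT5E, 1 of 8 was lower and 0 higher by edgeR, and the same counts came from DESeq2, with 3 lower and 0 higher at an unadjusted p under 0.05. The lower gene was CD38, which makes cyclic ADP-ribose from NAD, at 168, 154 and 130 CPM in brain and 207 and 216 CPM in spleen (log2 fold change -0.49, SE 0.121, edgeR adjusted p = 0.0377). The groups did not overlap, but the call was lost with any 1 of the 5 libraries left out (edgeR adjusted p 0.0591 to 0.101) and with the replicate block (0.0508), which left 0 lower in the list.

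Of 14 genes of nucleotide release and nucleoside transport, 2 were higher and 1 lower in brain. SLC29A1, the main equilibrative nucleoside transporter, which carries adenosine across the membrane, stood at 28.7, 37.2 and 37.4 CPM in brain and 71.1 and 74.2 CPM in spleen. The log2 fold change stood at -1.07 (SE 0.127, edgeR adjusted p = 0.00177). LRRC8C, a subunit of volume-regulated anion channels, was at 159, 159 and 162 CPM in brain and 91.5 and 95.3 CPM in spleen (log2 fold change 0.78, SE 0.0927, edgeR adjusted p = 0.00188). The groups of both genes stood well apart, and both passed in all 13 fits. LRRC8D, a further subunit, was called higher (log2 fold change 0.40, SE 0.100, edgeR adjusted p = 0.0414), a call lost with any 1 library left out (0.0615 to 0.149), with the replicate block (0.0745; 1 higher in the list), with DESeq2 size factors (0.0530) and with summed transcript estimates (0.0543).

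The ligands of the P2RY14 receptor are UDP-sugars. Of 21 genes listed for their synthesis, use and transport and for related glycogen steps, 1 was higher and 1 lower in brain, with a median log2 fold change of 0.032. The higher gene, GBE1, encodes the glycogen branching enzyme, which acts on glycogen and not on UDP-sugars. It stood at 83.7, 89.6 and 83.1 CPM in brain and 36.0 and 35.3 CPM in spleen (log2 fold change 1.26, SE 0.0958, edgeR adjusted p = 0.000238). UGP2, which makes UDP-glucose, was picked after its values were seen and did not pass, at 286, 265 and 293 CPM in brain and 285 and 214 CPM in spleen (log2 fold change 0.17, edgeR adjusted p = 0.467).

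Of 15 genes of purine nucleosides inside the cell, 0 were higher and 2 lower in brain by edgeR. At an unadjusted p under 0.05 2 were higher and 4 lower, and DESeq2 called 1 higher and 3 lower. ADK, adenosine kinase, stood at 45.6, 42.1 and 45.7 CPM in brain and 68.9 and 56.1 CPM in spleen (log2 fold change -0.49, SE 0.113, edgeR adjusted p = 0.0305). APRT, which salvages adenine, was at 120, 130 and 128 CPM in brain and 165 and 157 CPM in spleen (log2 fold change -0.36, SE 0.0942, edgeR adjusted p = 0.0483). ADK lost its call without any 1 brain replicate or spleen replicate 1 (edgeR adjusted p 0.0590 to 0.146), and APRT with any 1 library left out (0.0748 to 0.184) and with the replicate block (0.0620; 1 lower in the list).

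Of 27 tested G proteins and regulators that turn receptor signals off, 6 were higher and 2 lower in brain, or 29.6%, beside 9.51% of all tested genes. The lists were chosen with the contrast known, and nothing is read from this share. RGS16, which speeds the shut-off of Gi and Gq proteins, stood at 3.43, 4.55 and 4.29 CPM in brain and 0.957 and 0.635 CPM in spleen (log2 fold change 2.37, SE 0.275, edgeR adjusted p = 0.00167). RGS1, a regulator of Gi signalling in B cells, was at 13.1, 9.94 and 8.16 CPM in brain and 3.71 and 2.84 CPM in spleen (log2 fold change 1.67, SE 0.239, edgeR adjusted p = 0.00448). ARRB1, beta-arrestin, was at 37.2, 39.9 and 45.6 CPM in brain and 25.6 and 22.2 CPM in spleen (log2 fold change 0.78, SE 0.124, edgeR adjusted p = 0.00800). All brain libraries were above both spleen libraries for these genes, and the 3 passed in all 13 fits.

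The other calls of this list, named after their values were seen, were RGS2, RGS13 and the receptor kinase gene GRK3 on the higher side (log2 fold changes 0.89, 1.40 and 0.37, edgeR adjusted p = 0.0123, 0.0323 and 0.0459) and the kinase gene GRK6 and the Gq family gene GNA11 on the lower side (-0.56 and -0.42, edgeR adjusted p = 0.0114 and 0.0261). Without brain replicate 1 the list had 3 higher and 0 lower calls, and with the replicate block 5 higher and 1 lower. The most abundant Gi gene, GNAI2, through which P2RY14 can signal, was also picked after its values were seen, and did not pass, at 232, 257 and 284 CPM in brain and 284 and 270 CPM in spleen (log2 fold change -0.10, edgeR adjusted p = 0.624). Of 5 tested inflammasome genes that act after P2RX7, 0 were called by edgeR or DESeq2, and 2 were higher at an unadjusted p under 0.05. With the replicate block 1 was called higher by edgeR. The most abundant, IL1B, stood at 92.3, 86.9 and 99.3 CPM in brain and 79.9 and 68.6 CPM in spleen (log2 fold change 0.32, SE 0.109, edgeR adjusted p = 0.103).

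**Figure D5:**
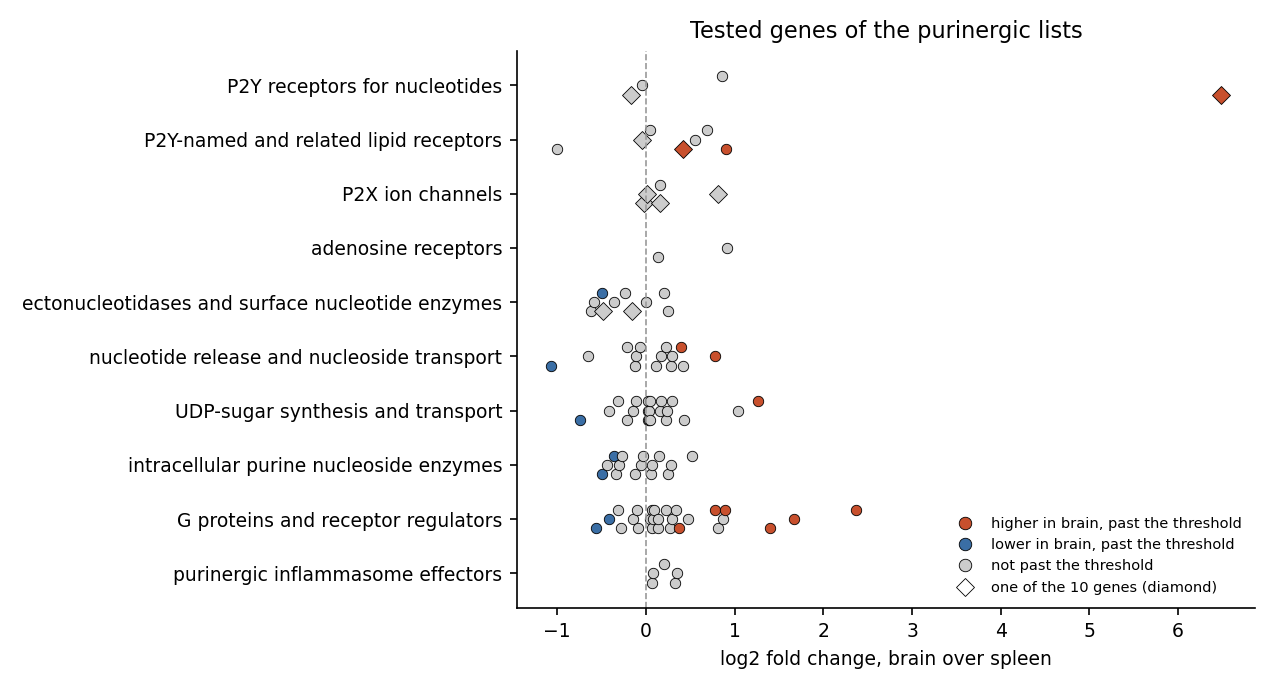
Fitted log2 fold change, brain over spleen (horizontal axis), of every tested gene in 10 lists of the purinergic pathway (rows), with diamonds for the 10 genes and colours for calls at an edgeR adjusted p under 0.05. P2RY14 lies alone at 6.49, and the next highest point, RGS16, is at 2.37.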

How the data were processed

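RNA-seq of 5 libraries was used, 3 from brain and 2 from spleen. Tools listed in the submitters' processing notes are kallisto 0.42.4, cutadapt 1.5, bcl2fastq 1.8.4 and DESeq2, with human and mouse builds GRCh38 and GRCm38. Libraries were made with a stranded kit, per the labels' protocols. How the tools were run, strand included, is not given in the sources used here. The deposited gene table holds estimated counts as whole numbers, and per the file headers the transcript tables hold estimated counts and TPM over human and mouse transcripts. The authors' rlog values, on a log2 scale, served as an alternative. Each of the gene tables has 1 column of no sample, which was not used.

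The 10 genes and the lists were chosen with earlier results of these data known. Identifiers were matched to GENCODE 44 symbols (86.4%, with 99.8% of counts). Estimated counts were rounded where needed and tested with edgeR 4.0.16 in R 4.3.3 (quasi-likelihood F test, filterByExpr, TMM, site as the only term, 3 residual degrees of freedom), adjusted by the Benjamini-Hochberg method over 20419 genes. CPM used TMM-scaled library sizes. SE is on the log2 scale, derived as the size of the log2 fold change divided by the square root of edgeR's F value. The pipeline was also run on simulated data, which held no change as large as that of P2RY14 and so says nothing on that gene. Alternatives were 2 other scalings, 2 filters, DESeq2 1.42.0, summed transcripts, a replicate block and leaving out each library.

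Named are the 10 genes, the neighbours of P2RY14, up to 3 called genes of each list with the smallest p, or the most abundant gene of a list without calls, and the 5 genes most like P2RY14, besides those said to be picked later. Some genes that this rule names are not reported here. The replicate number stands for the occasion of the experiment, per the labels, and the replicate block pairs brain with spleen by the titles. The pairing is uncertain, since the column names number the spleen libraries 2 and 4. Deviations from the site means correlated across genes at -0.025 for number 1 and 0.146 for number 2. For the unmatched brain replicate 3 and spleen replicate 1 the value was 0.147. With 2 spleen libraries, the deviations of 1 are the exact opposite of those of the other. These correlations therefore cannot decide whether the libraries pair by number.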

Additional observations from a re-analysis of the deposited data

How the results depend on the processing

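The log2 fold change of P2RY14 was 5.92 to 7.56 with 1 library left out and 2.67 in the authors' rlog values, which shrink low counts. Leaving out 1 library gave 0.32 to 0.51 for P2RY8, -0.53 to 0.63 for P2RY10, -0.19 to 0.23 for P2RX4 and 0.47 to 1.24 for P2RX5. In the rlog values P2RY8 was at 0.26 and P2RX5 at 0.40. Among the 10 genes, chosen with the contrast known, 1 was called higher with any 1 brain library left out, and 1 with summed transcript estimates.

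With 1 library left out, the calls over all genes were 515 to 871 higher and 146 to 828 lower, and those of the purinergic lists without the 10 genes were 6 to 10 higher and 1 to 7 lower. Over all genes 1337 were lower with no filter on low counts, which tests more genes, and 1353 with the DESeq2 Wald test. The cause of the DESeq2 count was not tested. With the replicate block, whose pairing is uncertain and which leaves 1 residual degree of freedom, 4 genes of the lists were lower, and it ended the calls of CD38, LRRC8D and APRT but of no other gene named by the rule. Of the 5 genes most like P2RY14, 0 were among the 5 by Pearson correlation. P2RY10, P2RY6, P2RY12, P2RX2 and MED12L had no value under the filter of 1 CPM in 2 libraries. With spleen replicate 1 or 2 left out, the lone spleen library is assumed to vary as the brain libraries do. P2RY14 in spleen, P2RY10 and GPR171 are limited by depth.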
